A study of Mus musculus with 6 samples.

Results

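Galectins are a family of proteins that bind sugars containing galactose. The genes described here are Lgals1, Lgals3, Lgals4, Lgals8 and Lgals9 together with Lgals3bp, which encodes a glycoprotein that galectin-3 binds. These 6 genes were taken by symbol from the 21604 gene symbols of the deposited count table. RNA was sequenced from RAW 264.7, a mouse macrophage-like cell line labelled wild type, in 2 groups of 3 libraries. The LPS group had received lipopolysaccharide (LPS), an activator of macrophages from the outer membrane of bacteria, for 24 h at 100 ng/mL. The LPS plus PE-CUR group had received the same LPS together with PE-CUR at 2 mg/mL for 24 h. The series title speaks of emulsion droplets stabilised by particles and loaded with curcumin, a plant polyphenol. The stated aim was to examine inflammation and osteoclast formation. The groups analysed include no cells without LPS, no empty emulsion and no free curcumin, so each difference below sets LPS plus PE-CUR against LPS alone. An effect of the carrier and an effect of curcumin cannot be told apart in this design.

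Galectins are made in the cytosol and leave the cell by a route that does not use a signal peptide. Outside the cell they bind and cross-link glycoproteins of the cell surface and matrix. Inside the cell they bind glycans that become exposed when the membrane of a lysosome or phagosome breaks, and so mark damaged organelles for repair or autophagy. Galectin-3 is abundant in macrophages, and under its older name Mac-2 it serves as a macrophage marker.

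Libraries held 28530750 to 35276533 counts. All 10 macrophage markers examined had at least 286 counts in every library, and their summed level lay between 10928 and 11532 CPM (counts scaled to a library total of 1e+06) in LPS and between 8979 and 10047 CPM with PE-CUR. Lyz2 alone gave 220993, 199981 and 230933 of the summed 369107, 353651 and 393336 marker counts in LPS replicates 1 to 3. Single markers moved both ways: 2 were higher, 4 were lower and 4 did not pass (edgeR adjusted p under 0.05). Fcgr3 fell 8.42-fold and Adgre1 3.17-fold, whereas Csf1r rose 1.39-fold and Cd14 1.32-fold. The part of these changes in the galectin results was not tested. The labels give the cell type as bone marrow macrophage, whereas RAW 264.7 is an established line. Summed counts of 10 liver marker genes were 1661 to 2328 in the 3 LPS libraries and 2290 in LPS plus PE-CUR replicate 3, but 6 and 2 in LPS plus PE-CUR replicates 1 and 2. In replicate 3 of LPS plus PE-CUR, Lgals1 lay inside the range of the LPS libraries in CPM scaled between libraries. Lgals3, Lgals3bp, Lgals8 and Lgals9 lay outside it there, on the same side as in replicates 1 and 2. The part of the liver transcripts in the galectin results was not tested. The labels do not say that replicates came from separate cultures, so p-values measure the spread between these libraries, which can be technical.

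The galectin transcripts did not move in one direction. Lgals3 fell 2.25-fold in LPS plus PE-CUR and Lgals9 rose 1.77-fold. Lgals8 fell and Lgals3bp rose by smaller amounts, 1.19-fold and 1.21-fold, and Lgals1 did not pass the test. Lgals4 was close to the floor of detection in all libraries and was not tested. Of the 5 tested members 2 were thus higher and 2 lower in the edgeR quasi-likelihood test of 3 against 3 libraries, with a threshold of 0.05 on p adjusted by the Benjamini-Hochberg method. The background was high: of 13014 genes tested 63.4% passed in either direction, 30.8% as higher and 32.7% as lower. A share of 4 in 5 members is therefore not a result particular to the galectins. Genes said to have risen or fallen passed that threshold. In bulk RNA, less transcript per cell and fewer cells that make it cannot be told apart.

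**Figure D1:**
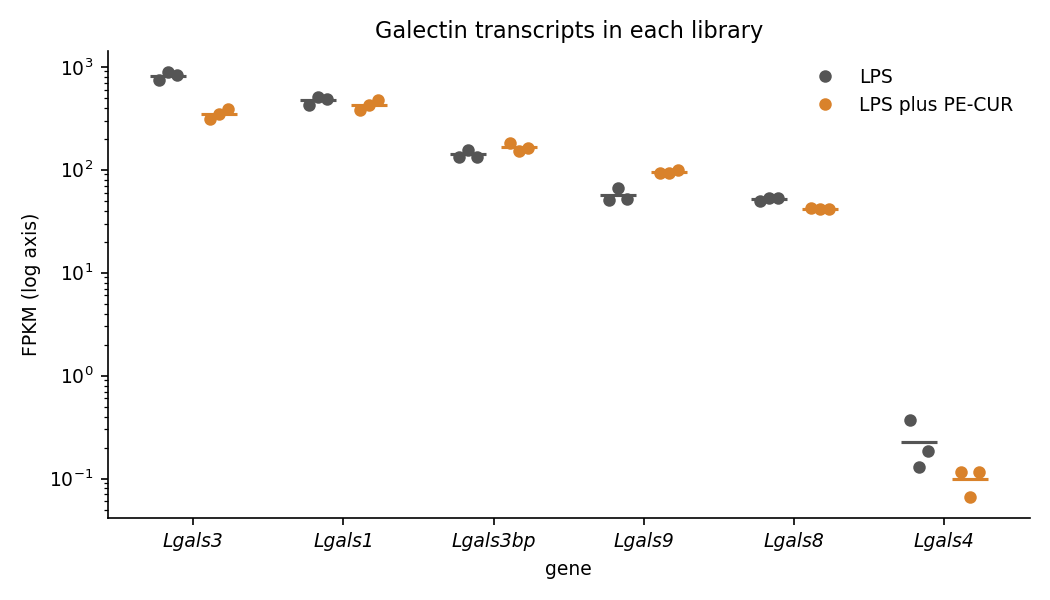
FPKM of the 6 members (horizontal axis) in each of the 3 LPS and 3 LPS plus PE-CUR libraries, on a log axis; each point is a library and each line a group mean. Lgals3 lay between 748 and 890 FPKM in LPS and between 310 and 391 FPKM in LPS plus PE-CUR, Lgals9 rose, and Lgals4 stayed under 0.4 FPKM.

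Stretches around the transcription starts of Lgals9, Lgals3bp and Lgals3 are shown next, because Lgals3 and Lgals9 moved in opposite directions and Lgals9 and Lgals3bp moved in the same one. Each runs 5′ to 3′ on the strand of the gene, from 250 bases before the start to 50 bases after it, as given by RefSeq for GRCm38.p6 (the assembly of mm10). The last 50 bases of each overlap an annotated exon and untranslated region. The Lgals9 window is chr11:78984875-78985174 on the minus strand, the Lgals3bp window chr11:118401910-118402209 on the minus strand and the Lgals3 window chr14:47373610-47373909 on the plus strand. Capitals mark matches to an interferon-stimulated response element (GAAA, any 2 bases, GAAA) or to a GC box (GGGCGG) on either strand.
Lgals9: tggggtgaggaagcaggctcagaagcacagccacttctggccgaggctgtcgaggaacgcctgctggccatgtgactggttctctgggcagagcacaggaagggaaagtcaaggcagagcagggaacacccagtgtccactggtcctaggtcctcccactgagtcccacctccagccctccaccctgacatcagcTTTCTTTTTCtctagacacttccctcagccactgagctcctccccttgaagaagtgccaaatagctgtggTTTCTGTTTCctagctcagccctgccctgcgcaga
Lgals3bp: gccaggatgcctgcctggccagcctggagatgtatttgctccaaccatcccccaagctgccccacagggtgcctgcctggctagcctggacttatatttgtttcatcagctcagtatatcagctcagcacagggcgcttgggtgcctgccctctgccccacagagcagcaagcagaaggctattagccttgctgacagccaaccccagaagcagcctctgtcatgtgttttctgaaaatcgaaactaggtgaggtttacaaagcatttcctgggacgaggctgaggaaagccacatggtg
Lgals3: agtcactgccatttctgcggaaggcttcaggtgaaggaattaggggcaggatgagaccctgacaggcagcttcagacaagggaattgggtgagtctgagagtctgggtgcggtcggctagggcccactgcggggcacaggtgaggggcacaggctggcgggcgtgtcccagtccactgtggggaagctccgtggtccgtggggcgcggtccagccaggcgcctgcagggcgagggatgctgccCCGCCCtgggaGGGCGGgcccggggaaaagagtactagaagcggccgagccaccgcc

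The Lgals9 window held 2 matches to the interferon element, both on the opposite strand, at positions -55 to -46 and 16 to 25 counted from the first transcribed base as 1. Such a match was present in 3.44% of 32851 promoter windows of the same length. The Lgals3bp and Lgals3 windows held no exact match, and near matches were not searched. Lgals3 had a GC box on each side of its start, at -7 to -2 and 5 to 10, a motif found in 35.7% of all windows. Its window was also richer in G and C (67.0%, with 18 CpG pairs) than those of Lgals9 (58.0%, 4 pairs) and Lgals3bp (55.0%, 3 pairs), against a median of 52.7% and 7 pairs. The AP-1 motif (TGANTCA) was searched on both strands as well, and so was the E-box core of lysosomal genes (spelled CACGTG). The third search was for the NRF2 element (spelled TGACNNNGC). None of these 3 motifs was found in any of the 5 member windows that could be matched by symbol. Of the windows not printed, that of Lgals4 held a GC box at 30 to 35. That of Lgals8, a gene that also fell, held neither a GC box nor the interferon element. A match is a description of the letters and not evidence of binding.

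Lgals3 encodes galectin-3, the chimera-type galectin, which joins a single sugar-binding domain to a flexible tail and can form oligomers. The gene lies on chromosome 14, 47373860 to 47386167, on the plus strand. In the LPS libraries it stood at 748, 890 and 823 FPKM (replicates 1 to 3; counts scaled to gene length and library total, as deposited). In the LPS plus PE-CUR libraries it stood at 310, 348 and 391 FPKM. The groups did not overlap, and the lowest LPS value was well above the highest value with PE-CUR. On counts scaled between libraries the log2 fold change was -1.17 (SE 0.11, 95% interval -1.41 to -0.93, edgeR adjusted p = 1.79e-05). Only 14.5% of the 13014 tested genes had a larger change in either direction. By mean FPKM Lgals3 was rank 55 of all 21604 genes in LPS and rank 156 in LPS plus PE-CUR, so it remained an abundant transcript.

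Lgals3bp encodes galectin-3 binding protein, a secreted glycoprotein with a scavenger receptor domain, which is not itself a galectin. It is known as an interferon-induced gene in human cells. The gene lies on chromosome 11, 118392747 to 118401959, on the minus strand. It stood at 134, 155 and 133 FPKM in LPS and at 180, 151 and 163 FPKM in LPS plus PE-CUR. In FPKM, LPS replicate 2 lay above LPS plus PE-CUR replicate 2, so the groups overlapped on that scale. In CPM scaled by factors for library composition they did not overlap, with 297 to 352 CPM in the LPS libraries and 360 to 410 CPM in those with PE-CUR, a separation seen in 69.0% of all tested genes. The rise was small (log2 fold change 0.28, SE 0.08, 95% interval 0.11 to 0.45, edgeR adjusted p = 0.00764). It did not pass on log2(FPKM + 1) without a filter on low genes (log2 difference 0.22, limma adjusted p = 0.104).

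Lgals1 encodes galectin-1, a prototype galectin that acts as a dimer of identical subunits (chromosome 15, 78926725 to 78930465, plus strand). It stood at 429, 506 and 488 FPKM in LPS and at 384, 430 and 474 FPKM in LPS plus PE-CUR. The groups overlapped, since LPS replicate 1 lay below LPS plus PE-CUR replicates 2 and 3. No change passed the test (log2 fold change -0.09, SE 0.10, adjusted p = 0.459 in edgeR). The 95% interval of -0.31 to 0.13 covers changes of up to 1.24-fold lower. With 1 library left out the sign turned in 2 of 6 cases, to 0.01 without LPS replicate 2 and to 0.03 without LPS plus PE-CUR replicate 1. GENCODE M21 annotates 2 processed pseudogenes of Lgals1. Their likeness to the gene was not examined, and no source used here says how reads matching several loci were counted.

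Lgals9 encodes galectin-9, one of the tandem-repeat galectins, which carry a pair of sugar-binding domains on one chain. It is known as a ligand of the inhibitory receptor TIM-3 and as an interferon-induced gene in human cells. The gene lies on chromosome 11, 78962979 to 78984924, on the minus strand. It stood at 50.6, 66.5 and 51.7 FPKM in LPS and at 93.3, 93.7 and 100 FPKM in LPS plus PE-CUR. LPS replicate 2 was the highest of its group and still lay below every library with PE-CUR. The log2 fold change was 0.82 (SE 0.11, 95% interval 0.58 to 1.07, edgeR adjusted p = 1.70e-04), and 9.85% of the tested genes had a higher one. Without LPS replicate 2 the log2 fold change was 1.004.

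Lgals8 encodes galectin-8, a tandem-repeat galectin that binds glycans on broken vacuoles and in human cells recruits an autophagy receptor there. The gene lies on chromosome 13, 12439402 to 12464977, on the minus strand. It stood at 49.1, 53.4 and 52.9 FPKM in LPS and at 42.7, 41.5 and 41.6 FPKM in LPS plus PE-CUR. The libraries of each group lay close together and the groups did not overlap. The fall was small (log2 fold change -0.25, SE 0.06, 95% interval -0.37 to -0.13, edgeR adjusted p = 0.00247). Heatr1, on the opposite strand, shares 155 of the 3688 exon bases that GENCODE M21 gives for Lgals8. Heatr1 rose from 101 ± 8.25 to 178 ± 5.05 CPM (log2 fold change 0.81, mean ± SD of 3 libraries, edgeR adjusted p = 1.95e-06). No source used here says whether counting used strand, so the reads of the shared bases cannot be told apart.

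Lgals4 encodes galectin-4, a tandem-repeat galectin of the intestinal epithelium (chromosome 7, 28833122 to 28841710, plus strand). It was hit by 25, 9 and 14 counts in LPS replicates 1 to 3 and by 8, 5 and 7 with PE-CUR, or 0.142 to 0.781 CPM of the library total. Counts this low did not enter the test of all genes. The values with PE-CUR lay below those of LPS in scaled CPM, where the nearest values were 0.253 and 0.274, and the difference was not detectable at this depth. The edgeR fits that did admit the gene gave log2 fold changes from -1.37 to -0.87 (edgeR adjusted p from 0.0539 to 0.218). On log2(FPKM + 1) without a filter the log2 difference was -0.16 (limma adjusted p = 0.169). That value is flattened, because every FPKM of the gene lay below the added 1. Of 10 intestinal epithelium markers 8 were listed, with a summed level of 1.64 to 3.12 CPM without and 2.30 to 2.87 CPM with PE-CUR. The sums overlapped, but single markers differed. Vil1 had at most 4 counts in a library, and Cdh17 and Fabp2 were at 0 in all 3 LPS libraries. Fabp1, which the liver also expresses, had 75, 38 and 28 counts in LPS and 0, 1 and 53 with PE-CUR. Of the 3 markers tested, the keratin genes Krt8 (log2 fold change 1.07, edgeR adjusted p = 0.0301) and Krt18 (1.55, edgeR adjusted p = 0.0362) rose at levels of at most 1.32 CPM, and Fabp1 did not pass. Krt18 had 6, 14 and 10 counts in LPS and 43, 34 and 7 with PE-CUR, so its groups overlapped. The part of these markers in the Lgals4 values was not tested.

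**Figure D2:**
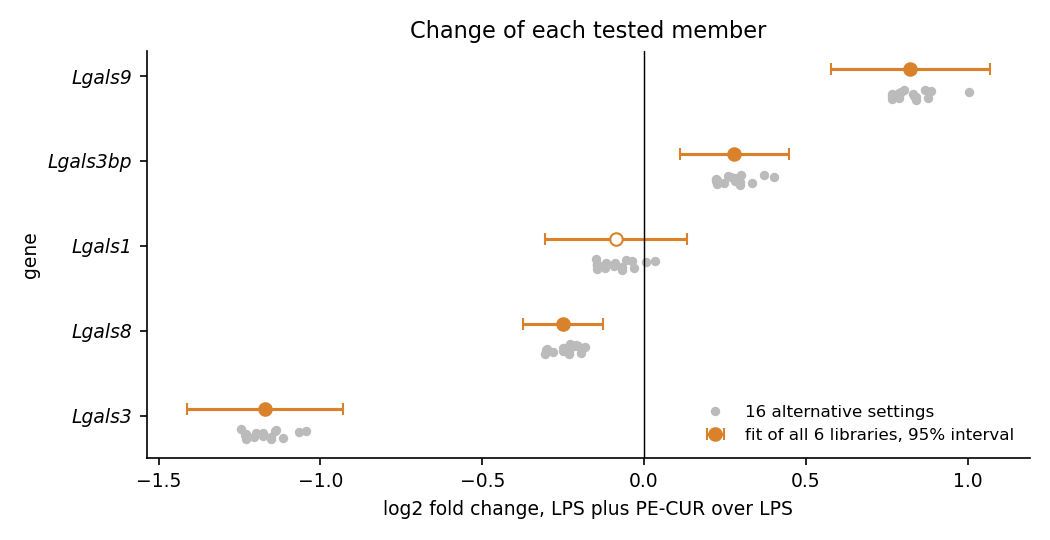
Log2 fold change of LPS plus PE-CUR over LPS (horizontal axis) for the 5 tested members, from the fit of all 6 libraries with its 95% interval, above grey points for 16 alternative settings; the open circle marks the member that did not pass. Lgals3 stayed between -1.25 and -1.05 and Lgals9 between 0.766 and 1.004 in the alternatives, while points of Lgals1 fell on both sides of 0.

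Other genes with a galectin fold added little transcript. Lgalsl, a galectin-related gene whose human protein does not bind galactosides, was at 21.7 ± 1.77 CPM without and at 22.8 ± 2.30 CPM with PE-CUR (mean ± SD, n = 3). It did not pass, with a log2 fold change of 0.07 (edgeR adjusted p = 0.530). Lgals2 had 3 to 14 counts per library. Lgals7 and Lgals12 had 1 count each over all 6 libraries.

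Together the 6 member transcripts made up 0.211% ± 0.0174 of the counts in LPS and 0.150% ± 0.00842 in LPS plus PE-CUR (mean ± SD, n = 3). Their summed FPKM was 1411, 1672 and 1549 in LPS and 1010, 1064 and 1170 in LPS plus PE-CUR, without overlap. The order of the levels changed with it. Per length, Lgals3 was the most abundant member in every LPS library and held 53.1% ± 0.137 of the summed FPKM, followed by Lgals1 with 30.7% ± 0.683. In every library with PE-CUR Lgals1 came first with 39.6% ± 1.38 and Lgals3 second with 32.3% ± 1.43. Lgals3bp came next in both groups, with 9.12% ± 0.498 and 15.3% ± 2.17. Lgals9 held 3.63% ± 0.324 in LPS, where it was level with Lgals8 (3.36% ± 0.149) and the order of the pair differed between libraries. With PE-CUR the share of Lgals9 was 8.87% ± 0.335 and that of Lgals8 3.89% ± 0.333, and Lgals9 was above Lgals8 in all 3 libraries. Shares within a library are bound to each other, so a lower share of Lgals3 raises the shares of the others.

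**Figure D3:**
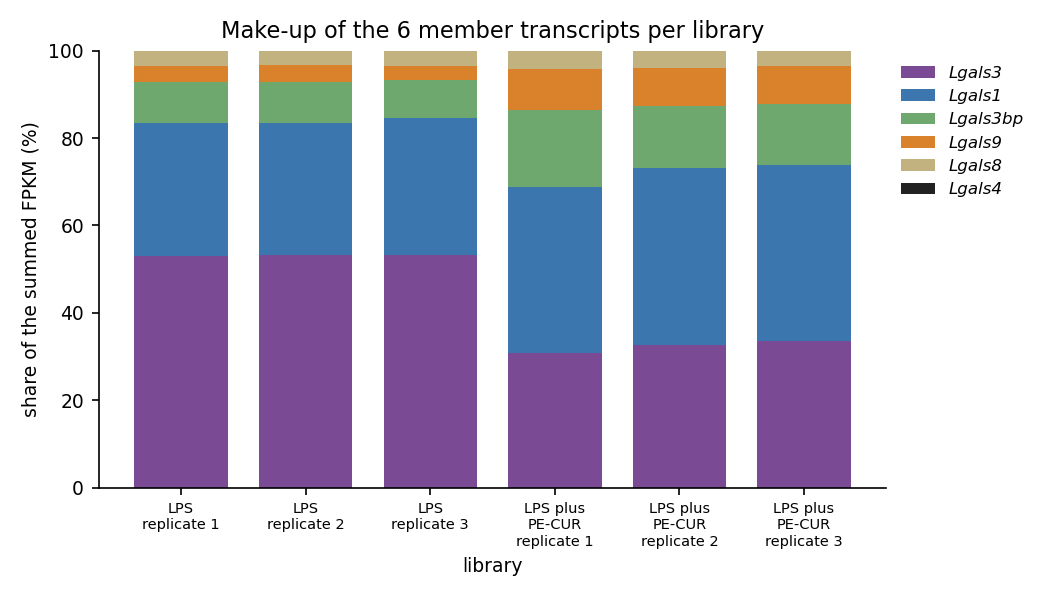
Share of the summed FPKM of the 6 members (vertical axis, percent) held by each gene in each library; bar segments stack to 100%. The Lgals3 segment takes 53.0% to 53.3% in the LPS libraries and 30.7% to 33.5% in the LPS plus PE-CUR libraries, and Lgals4 is too small to be seen.

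Ratios of 2 members within a library do not depend on the scaling between libraries. Lgals1 over Lgals3 was 0.574, 0.568 and 0.593 in LPS and 1.24, 1.23 and 1.21 in LPS plus PE-CUR (FPKM over FPKM). On the log2 scale its SD was 0.03 and 0.02 within the groups, although each gene alone varied by 8.46% to 11.6% (coefficient of variation of FPKM), so both genes were high or low in the same libraries of a group. The log2 ratio differed between groups by 1.09.

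Lgals9 over Lgals3 was 0.0677, 0.0747 and 0.0628 in LPS and 0.301, 0.269 and 0.256 in LPS plus PE-CUR, a 4.03-fold difference of the mean log2 ratio. This was the widest of the 4 ratios examined. Lgals3bp over Lgals3 was 0.161 to 0.179 in LPS and 0.416 to 0.580 in LPS plus PE-CUR (2.75-fold), and Lgals8 over Lgals3 0.0600 to 0.0657 and 0.106 to 0.138 (1.90-fold). All 4 ratios share Lgals3 as denominator, so they are not independent of each other. In each the groups did not overlap, with an exact two-sided permutation p = 0.1 before and after Benjamini-Hochberg adjustment over the 4, which is the smallest that 3 against 3 libraries can give.

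Genes with the most like pattern were sought among 9524 tested genes with a mean of at least 5 CPM, by the root mean square difference of log2 CPM over the 6 libraries after centring each gene on its mean. Nearest to Lgals3 were Gla, the lysosomal alpha-galactosidase, at a difference of 0.04, and Cd83, an activation marker, also at 0.04. Gla went from 119 to 54.5 CPM and Cd83 from 46.5 to 21.0 CPM. Nearest to Lgals9 were the gamma-tubulin gene Tubg1 at 0.04 and the replication gene Gins4 at 0.05. For Lgals1 they were the RNA processing gene Clp1 and the macrophage marker Cd68, both at 0.03. Prcc and Tor1a were nearest to Lgals3bp and Kifap3 and Akirin1 to Lgals8, all at 0.02. Among the 5 tested members Lgals1 and Lgals8 were the closest pair, at 0.13, and Lgals3 and Lgals9 the most distant, at 1.01. The measure describes 6 libraries and carries no test. For the members that passed the test above, the groups make up most of the pattern. Lgals1 stood at 338 to 399 CPM in LPS and at 305 to 390 CPM with PE-CUR. Its pattern is therefore mostly spread between libraries of a group.

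Genes of proteins that bind galectins or act with them were measured in 3 lists, and levels printed without an SD are group means of 3 libraries in scaled CPM. Among 20 surface and matrix partners 1 was higher, 12 were lower and 7 did not pass. Their median log2 fold change was -0.37, beside -0.03 over all tested genes. Of all tested genes 30.8% were higher, 32.7% lower and 63.4% called in either direction, so 13 called of 20 is near the background. By direction the list differed from it, with 12 of 20 lower above and 1 of 20 higher below the share over all genes. No set test was made, and the list was chosen with earlier results of these data known. Havcr2, the gene of the galectin-9 receptor TIM-3, fell from 95.8 ± 2.17 to 34.7 ± 1.55 CPM (log2 fold change -1.47, mean ± SD of 3 libraries, edgeR adjusted p = 4.58e-08). Havcr2 and Lgals9, receptor and ligand, thus moved in opposite directions. Cd40, a costimulatory receptor, fell from 24.4 to 9.25 CPM (log2 fold change -1.40).

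Tfrc, the transferrin receptor, was the partner that rose (log2 fold change 0.65, 411 to 644 CPM, edgeR adjusted p = 0.0247). That call ended with the replicate number as a block (edgeR adjusted p = 0.0964) and without LPS replicate 2, LPS replicate 3 or LPS plus PE-CUR replicate 3 (edgeR adjusted p from 0.0626 to 0.0736). A few more partners were chosen after their values were seen. Cd44, the hyaluronan receptor, fell from 712 to 440 CPM (log2 fold change -0.69). Of the heavily glycosylated lysosomal membrane proteins, Lamp2 fell from 642 to 397 CPM (log2 fold change -0.69). Lamp1 stood at 1258 ± 70.7 and 1155 ± 42.5 CPM, with a log2 fold change of -0.12 that missed the threshold (edgeR adjusted p = 0.0994). A fall was called in 4 of 16 alternatives (edgeR or limma adjusted p from 0.0301 to 0.0409).

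Of 16 genes acting with galectins at damaged lysosomes 1 was higher, 6 were lower and 9 did not pass, with a median log2 fold change of -0.12. Over all tested genes 30.8% were higher and 32.7% lower, and 63.4% were called in either direction, so 6 lower of 16 is near the background and 7 called of 16 is below it. Trim16, a ubiquitin ligase that works with galectin-3 in human cells, fell from 12.1 ± 0.945 to 4.37 ± 1.15 CPM (log2 fold change -1.47, mean ± SD of 3 libraries, edgeR adjusted p = 4.35e-05). Calcoco1, a gene of the family of autophagy receptors that includes the human partner of galectin-8, fell from 34.4 to 14.1 CPM (log2 fold change -1.28). Map3k7, the kinase TAK1, rose from 86.8 to 116 CPM (log2 fold change 0.42).

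Of 26 glycan enzymes and transporters 25 were listed and 22 tested. Of the 22 tested 4 were higher, 12 were lower and 6 did not pass, with a median log2 fold change of -0.22. Beside them, 30.8% of all tested genes were higher, 32.7% lower and 63.4% called in either direction, with a median of -0.03. Gcnt1, which makes the branch of O-glycans on which galectin ligands are extended, fell from 54.2 ± 3.64 to 16.2 ± 0.912 CPM (log2 fold change -1.74, mean ± SD of 3 libraries, edgeR adjusted p = 6.67e-08). B4galt3, one of the galactosyltransferases that add the galactose itself, fell from 92.6 to 59.8 CPM (log2 fold change -0.63). B3gnt2, which extends lactosamine chains, rose from 131 to 160 CPM (log2 fold change 0.28). St3gal4, a sialyltransferase that caps galactose, rose from 32.7 to 41.5 CPM (log2 fold change 0.35).

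Again chosen after their values were seen, C1galt1, which makes the core of O-glycans, fell from 54.1 to 32.1 CPM (log2 fold change -0.76). Mgat5, the enzyme of the N-glycan branch that galectin-3 binds well, fell from 79.0 to 64.4 CPM (log2 fold change -0.30). St6gal1, whose sialic acid blocks binding of galectin-1 and galectin-3, fell from 10.8 to 3.91 CPM (log2 fold change -1.46). Enzymes that build ligands and an enzyme that masks them were therefore both among the genes that fell, and surface glycans themselves were not measured.

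**Figure D4:**
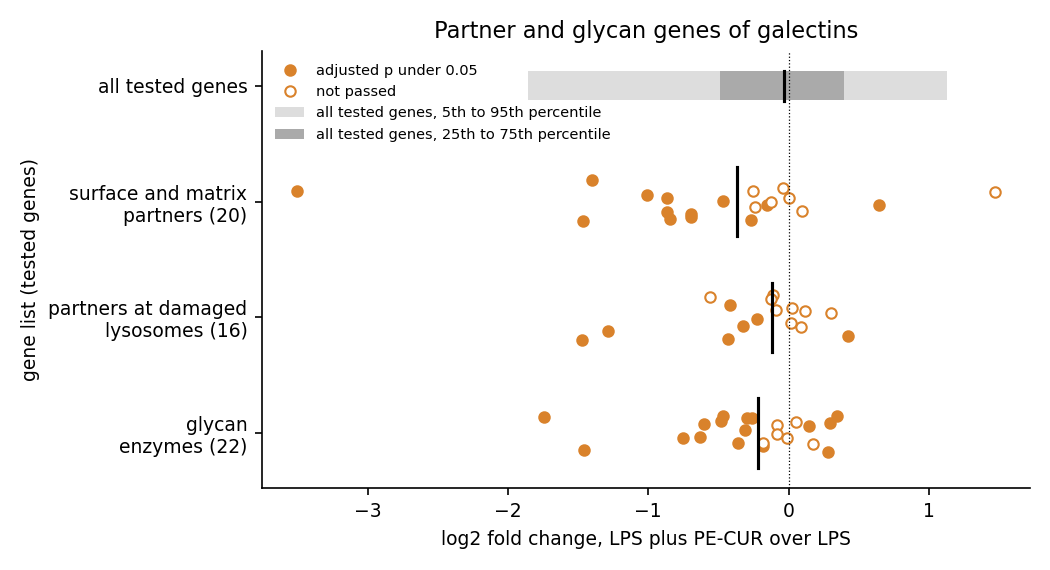
Log2 fold change of LPS plus PE-CUR over LPS (horizontal axis) of each tested gene in the 3 lists. Points are filled where the adjusted p was under 0.05 and jittered vertically, with black lines at the medians. Grey bars give the percentile ranges of all 13014 tested genes named in the key (-1.86 to 1.13 and -0.49 to 0.40). Some tested genes lie outside both bars. List medians were -0.37, -0.12 and -0.22, against -0.03 for all genes.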

How the data were processed

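The authors deposited whole-number counts per gene symbol and FPKM values for the same 6 libraries. The submitters' processing notes name mm10, HTSeq, fastp, DESeq2 and SAMtools; no source used here gives the aligner, annotation, strand setting or versions. In 100% of 105337 FPKM values above 0, the length implied by count and library total matched the median of its gene (relative tolerance 0.0001). No outside gene length was used, so a gene with a single value above 0 matches by construction. The deposited FPKM thus rescale the same counts.

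Counts were tested in R 4.3.3 with edgeR 4.0.16: filterByExpr, TMM factors, robust quasi-likelihood fit with group as its only term, two-sided p adjusted by Benjamini-Hochberg over 13014 genes. The fit was tested on simulated data. CPM are scaled by the TMM factors unless said otherwise. An SE is the absolute log2 fold change over the root of its F statistic.

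Alternatives were DESeq2 1.42.0, limma 3.58.1 (voom, log2 FPKM with pseudocounts of 1 or 0.1), other factors and filters, the replicate number as a block, and each library left out. The members and lists were chosen with earlier results of these data known. Named by rule were all members, the 2 smallest p per direction in each list, and the 2 genes of most like pattern per tested member. Coordinates are from RefSeq GRCm38.p6, counted from 1. At this depth 1 CPM is 28.5 to 35.3 counts.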

Additional observations from a re-analysis of the deposited data

How the results depend on the processing

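The changes of Lgals3, Lgals8 and Lgals9 kept their direction and stayed past the threshold in all 16 alternatives, with log2 fold changes of -1.25 to -1.05, -0.31 to -0.18 and 0.766 to 1.004. Lgals3bp passed in 15 and missed on log2(FPKM + 1) without a filter (0.22), where 1 member rather than 2 was higher. Leaving out 1 library moved Lgals1 between -0.15 and 0.03 (0.01 without LPS replicate 2 and 0.033 without LPS plus PE-CUR replicate 1). Among partners, the surface list had 2 higher genes with DESeq2, 0 with the replicate block, and 0 to 1 when a library was left out. The lysosome list had 2 higher genes without a filter and 1 to 2 when a library was left out. Its lower genes, 6 in the main fit, numbered 4 to 5 when a library was left out. In the other alternatives they numbered 4 to 10, with 10 on log2(FPKM + 1). The cause was not tested. Same-numbered libraries did not deviate together (correlations -0.18 to -0.05), so the numbers were not taken as pairs; the replicate block moved the calls of all genes from 8256 to 7661. The 4 ratios kept their direction in all 9 alternatives each, but these settings could not have turned it. The groups did not overlap in any ratio, so leaving out a library could not change the sign. Dropping the length scaling or adding the replicate block leaves the difference of means as it is. The pseudocount was small beside these FPKM. Scaling by library size alone lowered all log2 fold changes by a median of 0.06. Among called genes 48.5% were higher, and 40.7% to 52.5% in the alternatives. Depth limits Lgals2, Lgals4, Lgals7 and Lgals12, which lay near or below 1 CPM.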
